A study of Homo sapiens with 16 samples.

Results

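The cytosolic ribosomal protein genes were taken by name, as the genes whose symbol is RPS or RPL with a number, RPSA, or RPLP0 to RPLP2, together with the paralogs whose symbols add an L to such a name. The name rule uses no measured value, but it was chosen with earlier results of these data known. The count table held 85 such genes among 62703, and 81 of them were among the 10566 genes that passed the edgeR filter on low counts. Of the 81, 31 encode proteins of the small subunit and 50 of the large subunit, and 6 are paralogs (RPL7L1, RPL22L1, RPL26L1, RPL36AL, RPL39L and RPS27L), which leaves 75 core genes. The 4 genes that did not pass included RPL3L with 0 counts in all 16 libraries, RPL10L with 7 and RPL17 with 45.

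The ribosome reads mRNA and joins amino acids into protein, and each of its subunits is built from ribosomal RNA and a fixed set of proteins. The mRNAs of those proteins are among the most abundant of growing cells, and most start with a C followed by a run of pyrimidines, the terminal oligopyrimidine (TOP) tract, through which mTOR signalling sets how strongly they are translated. Paralogs encode close variants of a core protein, and several are known for expression that is limited to some tissues or for a level that follows that of the partner gene. Processed pseudogenes, copies of the mRNA pasted back into the genome, are more common for ribosomal protein genes than for almost any other family, and the short reads of a 3′ tag assay cannot always be placed on the gene or on its copy.

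The data were 3′ tag counts from spheroids of 3 human prostate cancer cell lines: LNCaP, which depends on androgen and expresses the androgen receptor, 22Rv1, which expresses the receptor and its splice variants, and PC3, which has little or no receptor. Cells received 25 pmol of an siRNA pool, either against MED12 (siMED12), a subunit of the kinase module of Mediator, or without a target (siCtrl). They stayed in 2D culture for 3 days, were reseeded to form spheroids and were harvested 4 days later, 7 days after transfection. Each line had 3 siCtrl libraries. LNCaP had 3 siMED12 libraries, and 22Rv1 and PC3 had 2 each, replicates 1 and 3. Each line is a single established line, so a difference between lines is a difference between these cultures. The paper says that its experiments had 3 or more biological replicates unless stated otherwise. The labels do not say that libraries of a group came from separate cultures, so p-values measure only the spread between these libraries.

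Library totals ran from 479118 to 993807 counts, so that 3 counts, the number that a reading of 0 still allows, stood for 3.15 to 6.22 CPM (counts scaled to a common library total with TMM). MED12 itself had 5 to 9 counts in a LNCaP siMED12 library against 6 to 11 in siCtrl, 7 in each 22Rv1 siMED12 library against 10 to 18, and 7 and 12 in PC3 against 8 to 22. These counts are too few to grade the knockdown by library. The lines carried their markers: KLK3, an androgen-regulated protease, was at 2397 to 2561 CPM in LNCaP siCtrl, 24.7 to 35.1 in 22Rv1 and 9.03 to 18.8 in PC3, and CAV1, a caveolar coat protein, was at 1.43 to 5.30, 13.4 to 16.9 and 484 to 572 CPM. A pair of siMED12 libraries stood above the others in genes restricted to another line, and where those counts came from was not tested. In 22Rv1 siMED12 replicate 3, 34 genes restricted to PC3 (at least 50 CPM there and under 1 CPM in the other lines in siCtrl) stood at 4.60% of their PC3 level, against at most 0.952% in the 10 other libraries of LNCaP and 22Rv1. In PC3 siMED12 replicate 3, 3 genes restricted to LNCaP stood at 2.75%, against at most 1.04% in the 9 other libraries of PC3 and 22Rv1. If those shares were admixture, they would have shifted the level of a member in the 22Rv1 library by -3.39% (RPS20) to 11.6% (RPS24) and in the PC3 library by -2.71% (RPL39L) to 10.5% (RPL22L1), and by under 5% for 80 and 71 of the 81 members.

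The start of the gene is shown for core genes and paralogs because the TOP tract is the feature that these genes share and that the name rule did not use. Of the 85 genes, 68 had an entry in the RefSeq promoter table (GRCh38.p14). A C followed by at least 4 pyrimidines lay exactly at the annotated start of 43 of the 68 (63.2%). Over all 35116 promoters the number was 1429 (4.07%). Among 90 promoters whose symbol begins like that of a mitochondrial ribosomal protein gene it was 6 (6.67%). The members had 1 promoter each, while these backgrounds were not reduced to 1 per gene. The tract lay at the start of 42 of 62 core genes with an entry and of 1 of 6 paralogs with an entry, RPL22L1. Those 6 paralogs are not the 6 tested: they included RPL10L, which did not pass the filter, and RPL39L had no entry. When its C could lie up to 10 bases from the start on the coding strand, the counts were 57 of 68 (83.8%) and 33.5% of all promoters. Annotated starts can lie some bases from the start in use, and a tract that is missing from this window says nothing about the mRNA. Each sequence below is the coding strand, 15 bases before and 15 from the annotated start, with capitals for the tract whose C is nearest the start within 10 bases of it.
RPL22 (chr1:6199581-6199610, minus strand): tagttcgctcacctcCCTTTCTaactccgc
RPL22L1 (chr3:170870181-170870210, minus strand): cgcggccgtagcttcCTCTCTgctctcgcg
RPL26 (chr17:8383179-8383208, minus strand): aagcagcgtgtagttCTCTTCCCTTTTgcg
RPL26L1 (chr5:172958714-172958743, plus strand): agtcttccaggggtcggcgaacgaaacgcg
RPL36A (chrX:101390996-101391025, plus strand): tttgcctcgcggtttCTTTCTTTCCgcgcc
RPL36AL (chr14:49620612-49620641, minus strand): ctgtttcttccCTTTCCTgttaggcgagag
RPS27 (chr1:153990747-153990776, plus strand): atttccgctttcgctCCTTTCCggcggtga
RPS27L (chr15:63157463-63157492, minus strand): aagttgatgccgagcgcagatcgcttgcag
RPS24 (chr10:78033848-78033877, plus strand): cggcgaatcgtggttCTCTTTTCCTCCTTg
RPL13A (chr19:49487593-49487622, plus strand): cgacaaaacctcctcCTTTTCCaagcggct
The 4 core partners shown start with the tract at the first transcribed base. Of their paralogs, RPL22L1 does so too, RPL36AL has a tract that begins 4 bases before the annotated start, and RPL26L1 and RPS27L have none in the window.

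In siCtrl spheroids the ribosomal protein genes were highest in LNCaP, intermediate in 22Rv1 and lowest in PC3. Together the 85 genes took 10.8%, 12.1% and 11.3% of the counts of the LNCaP siCtrl libraries, 10.8%, 9.91% and 9.59% in 22Rv1 and 7.21%, 7.56% and 7.52% in PC3. The PC3 libraries all lay below the others, while LNCaP and 22Rv1 met at 10.8%. As means these shares were 11.4 ± 0.645% (SD, n = 3), 10.1 ± 0.624% (n = 3) and 7.43 ± 0.193% (n = 3). Counting error is small beside this spread: for the LNCaP siCtrl library at 10.8% the exact 95% binomial interval was 10.7% to 10.9%. Without the mitochondrially encoded transcripts, which took 5.41% to 10.1% of siCtrl counts, the means were 12.5%, 10.8% and 8.11%. A lower share in a bulk library cannot be split into less RNA per cell and fewer cells of a kind.

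**Figure D1:**
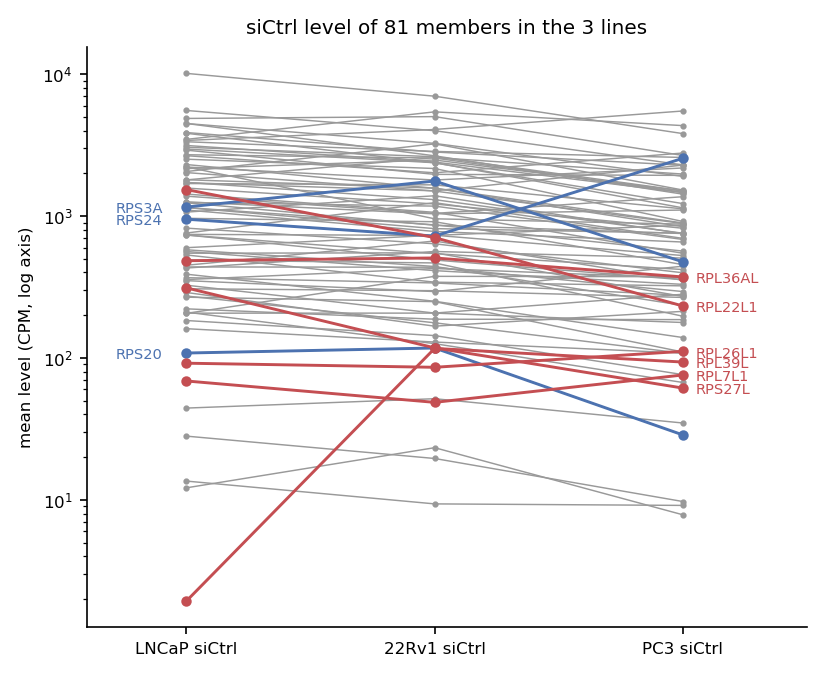
Mean siCtrl level in CPM (log axis) of each of the 81 tested genes in LNCaP, 22Rv1 and PC3 (3 libraries each). Grey lines are core genes, red lines the 6 paralogs, and blue lines RPS3A, RPS24 and RPS20. Most lines fall from left to right, while RPS24 rises to 2551 CPM in PC3 and RPL39L rises from 1.94 CPM in LNCaP to 117 CPM in 22Rv1.

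**Figure D2:**
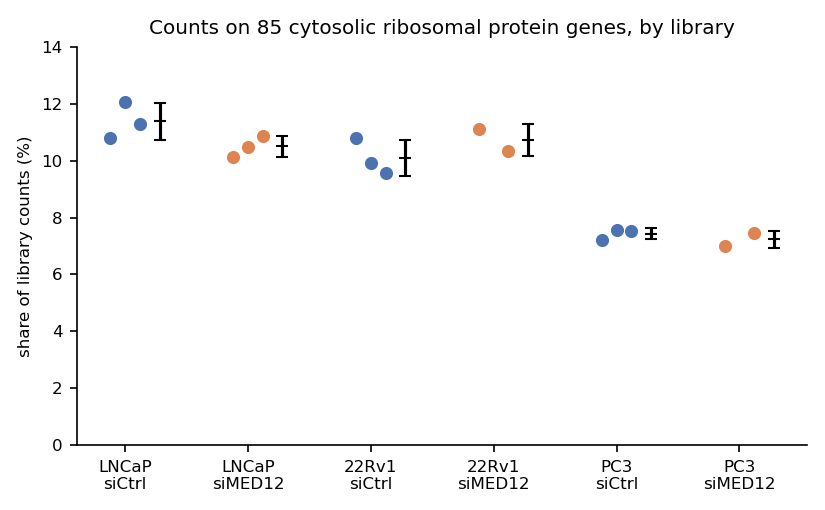
Share of each library's counts that fell on the 85 genes (y axis, percent), by line and siRNA. Points are libraries, blue for siCtrl and orange for siMED12, and bars give the mean ± SD. PC3 libraries sit between 7.01% and 7.56%, below every library of LNCaP and 22Rv1, and siCtrl and siMED12 of the same line lie close together.

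Gene by gene, 48 of the 81 followed the order LNCaP, 22Rv1, PC3 from high to low, and PC3 had the lowest mean for 62. Under the edgeR quasi-likelihood test, adjusted over 10566 genes, 13 members were higher and 36 lower in 22Rv1 than in LNCaP. Over all genes 22.0% were called higher and 21.2% lower in that comparison (43.2% in either direction). In PC3 against LNCaP 7 were higher and 54 lower, where 29.2% and 25.5% of all genes were called (54.7% together). In PC3 against 22Rv1 9 were higher and 50 lower, where 28.7% and 26.1% of all genes were called (54.9% together). Tested genes with a mean CPM at or above the level that the lowest 10% of members fell below are named higher-level genes here. There were 1384 of them, 1311 outside the members and the rest members, with no upper limit on their level. They were called more often than all genes: 59.5%, 72.3% and 72.8% were called, beside 60.5%, 75.3% and 72.8% of the members. The median log2 difference of the 81 was -0.30, -0.73 and -0.57 in these 3 comparisons, against 0.00, 0.05 and 0.01 over all genes and 0.01, -0.04 and -0.13 over the 1384. In the 22 tested members whose 60-base words around the stop codon recur elsewhere in the genome for under 10% the medians were -0.24, -0.20 and -0.48. The siCtrl libraries did not overlap between lines for 54, 68 and 63 members, 66.7%, 84.0% and 77.8% of the 81, where the background was 51.2%, 60.2% and 58.9% over all genes and 66.4%, 77.2% and 75.2% over the 1384. The comparisons share their siCtrl libraries in pairs and are not independent of each other.

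Both subunits moved alike in PC3, with a median log2 difference from LNCaP of -0.73 over the 31 small subunit genes and -0.74 over the 50 large subunit genes. In 22Rv1 the medians were -0.39 and -0.23, and the ratio of large to small subunit counts was 1.69 ± 0.034 (SD, n = 3) against 1.52 ± 0.019 in LNCaP and 1.52 ± 0.011 in PC3. The ribosome of mitochondria, whose 72 tested proteins come from other nuclear genes, had medians of -0.19 (22Rv1 against LNCaP), 0.03 (PC3 against LNCaP) and 0.14 (PC3 against 22Rv1). Of 13 other mRNAs listed for a TOP tract, such as translation factors, 8 were called lower and 4 higher in PC3 than in LNCaP. Of 8 listed chaperones of ribosomal proteins none was called lower and 4 were called higher in PC3 than in LNCaP, with a median of 0.38. Over all genes 29.2% were called higher and 25.5% lower in that comparison (54.7% together).

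RPL5, which binds the 5S ribosomal RNA with RPL11 and with it can hold MDM2, was at 4084, 4862 and 4526 CPM in LNCaP siCtrl, 2691, 2683 and 2594 in 22Rv1 and 1384, 1430 and 1464 in PC3. The lines did not overlap, and RPL5 was lower than in LNCaP by a log2 difference of -0.76 in 22Rv1 (SE 0.10, edgeR adjusted p 1.56e-07) and of -1.66 in PC3 (SE 0.10, adjusted p 3.51e-15). RPL11 did not follow its partner. It was at 621, 884 and 772 CPM in LNCaP, 1074, 1481 and 1170 in 22Rv1 and 530, 754 and 803 in PC3, higher in 22Rv1 than in LNCaP by 0.71 (SE 0.18, edgeR adjusted p 0.00148), and -0.13 (SE 0.18, adjusted p 0.563) in PC3 against LNCaP. RPS6, the small subunit protein that S6 kinase phosphorylates, stepped down by line from 4487 ± 329 CPM (SD, n = 3) to 3249 ± 417 and 1901 ± 107.

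A smaller number of core genes ran against the order. RPS24, a small subunit protein mutated in some families with Diamond-Blackfan anaemia, was at 946, 964 and 939 CPM in LNCaP, 799, 697 and 671 in 22Rv1 and 2486, 2623 and 2544 in PC3. Every PC3 library was above every other, with log2 differences of 1.43 (SE 0.11, edgeR adjusted p 6.37e-13) from LNCaP and 1.82 (SE 0.11, adjusted p 2.8e-15) from 22Rv1. RPL30, a large subunit protein that also binds its own transcript in yeast, was at 3409 ± 163, 4073 ± 202 and 5498 ± 72.4 CPM, so that it rose by line in the opposite order (0.69 in PC3 against LNCaP, SE 0.09, edgeR adjusted p 2.24e-07). RPL8 was higher in both other lines than in LNCaP (0.64 in 22Rv1, edgeR adjusted p 4.39e-06, and 0.32 in PC3, adjusted p 0.00767).

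Some members fell far below the rest in PC3. RPS20 was at 24.5, 32.6 and 28.9 CPM there, against 138, 84.5 and 103 in LNCaP and 164, 81.9 and 106 in 22Rv1 (PC3 against 22Rv1 -2.04, SE 0.26, edgeR adjusted p 8.94e-08). RPS3A was at 441, 497 and 487 CPM in PC3, 1049, 1313 and 1108 in LNCaP and 2038, 1753 and 1504 in 22Rv1 (PC3 against 22Rv1 -1.89, SE 0.13, edgeR adjusted p 3.09e-14). Its named pseudogenes held 43110 counts over the 16 libraries beside 13815 on the gene. RPS15A was lower in PC3 than in 22Rv1 by a log2 difference of -1.25 (SE 0.13, edgeR adjusted p 9.8e-10) and RPL26 was lower in PC3 than in LNCaP by -1.65 (SE 0.17, adjusted p 5.44e-10). RPL13A, a large subunit protein also known as part of an inhibitor of translation in interferon-treated myeloid cells, was high in LNCaP alone, at 2088, 2432 and 2138 CPM, against 994, 911 and 962 in 22Rv1 and 973, 752 and 906 in PC3. It was lower than in LNCaP by -1.21 in 22Rv1 (SE 0.11, edgeR adjusted p 1.18e-10) and by -1.34 in PC3 (SE 0.11, adjusted p 5.42e-12). RPL13 was at 3225 ± 286 CPM in 22Rv1 against 2059 ± 308 in LNCaP (0.65, SE 0.11, edgeR adjusted p 1.44e-05).

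Members differed in how far their line means lay apart. The highest line mean was 1.15 to 60.3 times the lowest, with a median of 1.84, and the ratio was under 1.5 for 20 of 81. RPL39L had the ratio of 60.3 and no other member had more than 6.61. Members with the lowest levels, RPL36A, RPS27, RPS26 and RPS10, had line means of 7.84 to 51.6 CPM in siCtrl. For some of them the low level goes with reads counted on pseudogenes: with the named pseudogenes summed in, the line means of RPL36A were 518 to 997 CPM and those of RPS26 164 to 374 CPM, while RPS10 stayed at 42.1 to 62.7 CPM and RPS27 at 9.04 to 27.2 CPM.

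The paralogs differed from their core partners and from each other in how they varied over the lines. A 3′ tag count does not depend on transcript length, so levels of a paralog and its partner can be set side by side in CPM, apart from reads lost to pseudogenes. The 6 tested paralogs, with RPL10L and RPL3L counted in, made up 2.09 ± 0.206% (SD, n = 3) of the CPM of the 85 genes in LNCaP siCtrl. In 22Rv1 the share was 1.54 ± 0.029% and in PC3 1.25 ± 0.037%.

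RPL39L (ENSG00000163923, chromosome 3, 187120948 to 187180908), the variant of the exit tunnel protein RPL39 that is best known from testis, was nearly absent from LNCaP. It had 2, 1 and 1 counts in the LNCaP siCtrl libraries, 108, 77 and 63 in 22Rv1 and 58, 105 and 66 in PC3. The 4 summed LNCaP counts lay near the floor, and the ratio of 22Rv1 to LNCaP was 64.9 with an exact 95% counting interval of 25.0 to 240 and that of PC3 to LNCaP 53.1 with an interval of 20.5 to 197, which cover counting error only. The edgeR log2 differences were 5.90 (SE 0.46, adjusted p 1.18e-12) and 5.60 (SE 0.48, adjusted p 3.99e-12). Where RPL39L was expressed, its level was 68.8 ± 11.8% (SD, n = 3) of that of RPL39 in 22Rv1 and 44.4 ± 10.9% in PC3. Named pseudogenes of RPL39 held 681 counts beside 2702 on the gene. With them summed in, RPL39L was at 55.5 ± 9.41% of RPL39 in 22Rv1 and 35.2 ± 7.80% in PC3. RPL39 itself was highest in LNCaP, at 282, 312 and 273 CPM, against 182, 174 and 146 in 22Rv1 and 230, 204 and 205 in PC3, so that the partner was lower in both lines that had the paralog (-0.79, SE 0.14, edgeR adjusted p 1.8e-05 in 22Rv1 and -0.44, SE 0.13, adjusted p 0.00507 in PC3).

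RPL22L1 (ENSG00000163584, chromosome 3, 170864875 to 170870208) and RPL22 (chromosome 1, 6185020 to 6209389), RNA-binding proteins of the large subunit, went in opposite directions. RPL22L1 was at 1644, 1375 and 1588 CPM in LNCaP siCtrl, 807, 697 and 609 in 22Rv1 and 213, 228 and 256 in PC3. RPL22 was at 204, 192 and 223 CPM in LNCaP, 390, 361 and 376 in 22Rv1 and 433, 333 and 354 in PC3. The lines did not overlap for RPL22L1, and for RPL22 LNCaP lay below both other lines, which overlapped. RPL22L1 thus stood at 745 ± 52.9% (SD, n = 3) of RPL22 in LNCaP, 187 ± 22.8% in 22Rv1 and 63.3 ± 12.4% in PC3. RPL22L1 was lower than in LNCaP by -1.12 in 22Rv1 (SE 0.14, edgeR adjusted p 6.88e-08) and by -2.73 in PC3 (SE 0.15, adjusted p 3.98e-16), and RPL22 was higher by 0.86 (SE 0.13, adjusted p 3.35e-06) and 0.85 (SE 0.13, adjusted p 2.11e-06). Genes named as pseudogenes of RPL22 held 3548 counts beside 3716 on the gene, and with them summed RPL22 was higher in 22Rv1 by 0.57 in place of 0.86. RPL22L1 then stood at 341 ± 46.5% of RPL22 in LNCaP, 105 ± 12.1% in 22Rv1 and 29.5 ± 3.65% in PC3.

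RPS27L (ENSG00000185088, chromosome 15, 63125872 to 63158021), a p53-responsive variant of RPS27, was at 338, 327 and 270 CPM in LNCaP siCtrl, 95.0, 134 and 124 in 22Rv1 and 51.6, 67.3 and 65.0 in PC3. The lines did not overlap, and the log2 differences from LNCaP were -1.40 (SE 0.16, edgeR adjusted p 1.57e-08) in 22Rv1 and -2.33 (SE 0.17, adjusted p 5.07e-13) in PC3. Its partner RPS27 had at most 19 counts in a siCtrl library, and 96.4% of the 60-base words around its stop codon recur elsewhere in the genome, so its level here is uncertain. RPL36AL (ENSG00000165502, chromosome 14, 49618530 to 49620626) was at 484 ± 22.6, 506 ± 71.6 and 372 ± 8.49 CPM, lower in PC3 than in 22Rv1 by -0.45 (SE 0.13, edgeR adjusted p 0.00312). RPL26L1 was at 91.8 ± 11.4, 85.9 ± 15.7 and 111 ± 12.7 CPM and no comparison between lines passed the threshold, while its partner RPL26 fell by line from 210 ± 35.7 to 67.1 ± 7.79 CPM. RPL26L1 was at 44.2 ± 6.45% of RPL26 in LNCaP and 168 ± 35.9% in PC3. Named pseudogenes of RPL26 held 5362 counts beside 1589 on the gene, and with them summed RPL26L1 was below its partner in each line, at 10.9 ± 2.05% of RPL26 in LNCaP, 14.6 ± 2.93% in 22Rv1 and 36.6 ± 6.29% in PC3. RPL7L1, a nucleolar protein of ribosome assembly, was at 68.8 ± 16.1, 48.6 ± 3.76 and 75.8 ± 7.62 CPM and was higher in PC3 than in 22Rv1 (0.64, SE 0.24, edgeR adjusted p 0.0273), a call that DESeq2 did not make (adjusted p 0.0569) and that was lost when any 1 of 5 libraries was left out (adjusted p 0.054 to 0.0956). RPL10L, a testis variant of RPL10, had 0 to 3 counts in a LNCaP library and 0 in the other lines, and RPL3L, known from heart and skeletal muscle, had 0 throughout.

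**Figure D3:**
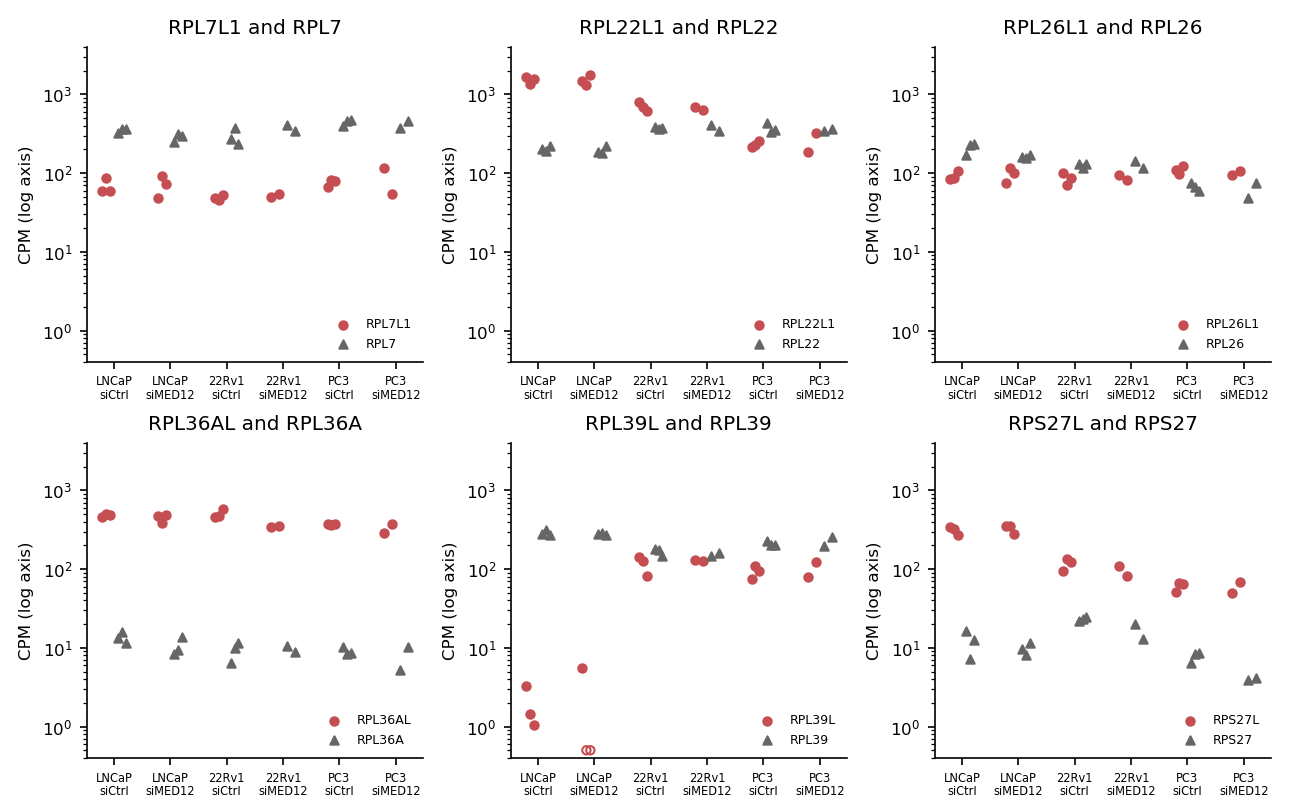
Level of each tested paralog (red circles) and its core partner (grey triangles) in every library, in CPM on a log axis, by line and siRNA. Open circles at the bottom mark libraries with 0 counts. RPL39L lies at 0 to 5.60 CPM in LNCaP and at 74.8 CPM or above in the other lines, and RPL22L1 lies above RPL22 in LNCaP and 22Rv1 and below it in the PC3 siCtrl libraries, with pseudogene counts left out.

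The effect of siMED12 on the ribosomal protein genes was small in every line. In LNCaP 74 of the 81 were lower and 7 higher, with a median log2 fold change of -0.15 against -0.004 over all genes tested. Over the 1384 higher-level genes the median was -0.04. None of the 81 passed the edgeR test, and over all genes 0.416% were called. An unadjusted p under 0.05 was found for 13 of the 81, beside 7.34% of all genes and 11.9% of the 1384. The median of the 75 core genes was -0.16 and that of the 6 paralogs 0.03. siMED12 libraries lay below all siCtrl libraries for 22 members and above them for 0, beside 6.75% and 5.89% of all genes (12.6% together). Of the 1384 higher-level genes, 160 lay below and 93 above (18.3% together). DESeq2 and limma also called none.

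The members with the lowest LNCaP p were RPL37A, a zinc-binding protein of the large subunit, and RPS7, a small subunit protein. RPL37A was at 1506, 1701 and 1516 CPM in siCtrl and 1157, 1072 and 1474 in siMED12. The groups did not overlap (-0.35 on the log2 scale, SE 0.11, edgeR adjusted p 0.289). RPS7 was at 368, 619 and 608 CPM in siCtrl and 431, 410 and 292 in siMED12, where the groups overlapped (-0.51, SE 0.16, edgeR adjusted p 0.291). Its named pseudogenes held 7922 counts beside 4561 on the gene. With them summed in, RPS7 was at 1330 ± 116 CPM in siCtrl and 1070 ± 154 in siMED12, again with overlap. RPL26 was at 169, 231 and 231 CPM in siCtrl and 161, 153 and 168 in siMED12 (-0.40, SE 0.15, edgeR adjusted p 0.455), and at the other end RPL11 had 0.12 (SE 0.18, adjusted p 0.946) and RPS27A, which is made as a fusion with ubiquitin, 0.08 (SE 0.12, adjusted p 0.947). RPL5, RPS6, RPS3, RPLP0 and RPS4X had log2 fold changes of -0.13 to -0.24. In sum the members took 10.1%, 10.5% and 10.9% of counts in siMED12, 10.5 ± 0.366% (SD, n = 3) against 11.4 ± 0.645% in siCtrl. The ranges overlapped. Mitochondrially encoded transcripts took 11.2 ± 1.41% of counts in siMED12 and 9.11 ± 0.856% in siCtrl, and without them the members' share was 11.8 ± 0.436% against 12.5 ± 0.619%. The part of that difference in the lower share was not tested.

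In 22Rv1 51 members were higher and 30 lower, with a median of 0.03 against 0.01 over all genes. RPL36AL was called, 1 of 81, beside a background of 1.84%. It was at 461, 470 and 589 CPM in siCtrl and 340 and 350 in siMED12, 506 ± 71.6 (SD, n = 3) against 345 ± 6.94 (n = 2). Both siMED12 libraries lay below every siCtrl library, and edgeR gave -0.56 on the log2 scale (SE 0.14, adjusted p 0.0311). The adjusted p was 0.0656 with DESeq2, 0.061 in a fit of 22Rv1 alone, and 0.186, 0.273 and 0.151 without siCtrl replicate 3, siMED12 replicate 1 and siMED12 replicate 3, with log2 fold changes of -0.44 to -0.58. In LNCaP RPL36AL had -0.11 (SE 0.12, edgeR adjusted p 0.893) and in PC3 -0.18 (SE 0.15, adjusted p 0.978), and the difference of the 22Rv1 effect from that in LNCaP, -0.44 (SE 0.19), had an edgeR adjusted p of 0.519.

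RPL13A, whose named pseudogenes held 19310 counts beside 16783 on the gene, had the highest log2 fold change in 22Rv1. It was at 994, 911 and 962 CPM in siCtrl and 1368 and 1148 in siMED12, without overlap (0.40, SE 0.12, edgeR adjusted p 0.0947). In LNCaP its groups did not overlap either, in the other direction (-0.20, SE 0.11, edgeR adjusted p 0.727), and the difference between the effects was 0.60 (SE 0.16, adjusted p 0.159), which did not pass the threshold but did with the replicate block (0.56, adjusted p 0.0485). RPL7, whose named pseudogenes held 27868 counts beside 4308 on the gene, was at 273, 371 and 236 CPM in siCtrl and 409 and 344 in siMED12, with overlap (0.37, SE 0.16, edgeR adjusted p 0.319). With the replicate block, which sets libraries of the same number against each other, RPL7 was called in 22Rv1 (0.56, edgeR adjusted p 0.00827), where the numbers are not known to pair the libraries. RPS27 was at 22.1, 23.4 and 24.4 CPM in siCtrl and 20.1 and 12.8 in siMED12 (-0.47, SE 0.34, edgeR adjusted p 0.637). The siMED12 libraries lay above every siCtrl library for 10 members and below for 4, beside 13.8% and 12.9% of all genes (26.6% together). Of the 1384 higher-level genes, 230 lay above and 250 below (34.7% together). The split in 22Rv1 rested on single libraries: 36 members were higher and 44 lower without siCtrl replicate 3, 33 higher and 48 lower without siMED12 replicate 1, and 61 higher and 20 lower without siMED12 replicate 3, the library raised in genes restricted to PC3.

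In PC3 13 members were higher and 68 lower, with a median of -0.11 against -0.04 over all genes and -0.09 over the 1384 higher-level genes. None of the 81 was called by edgeR, 0 had an unadjusted p under 0.05, and over all genes 0.0% were called, so PC3 gives no contrast between members and background. DESeq2 and limma called none of the 81. The siMED12 libraries lay below all siCtrl libraries for 23 members and above for 1, beside 11.9% and 8.8% of all genes (20.7% together). Of the 1384 higher-level genes, 260 lay below and 34 above (21.2% together), so those genes leaned the same way. RPS27 had the lowest log2 fold change, -0.93 (SE 0.65, edgeR adjusted p 0.975), from 5, 8 and 6 counts in siCtrl to 3 and 2 in siMED12. RPS29, a zinc-binding protein of the small subunit, had the highest, at 107, 118 and 99.7 CPM in siCtrl and 125 and 149 in siMED12 (0.32, SE 0.22, edgeR adjusted p 0.975). It was the member that lay above. RPL7L1 was at 117 and 53.9 CPM in the siMED12 libraries (0.25, SE 0.25, edgeR adjusted p 0.978) and RPS10 at 30.3 and 14.5 (-0.53, SE 0.41, adjusted p 0.975). Without siMED12 replicate 3, the library raised in genes restricted to LNCaP, 3 members were higher and 78 lower with a median of -0.20. Without siMED12 replicate 1 the split was 37 higher and 44 lower with a median of -0.02. Scaled by library totals alone it was 28 higher and 53 lower in PC3, with a median of -0.04 against 0.04 over all genes.

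**Figure D4:**
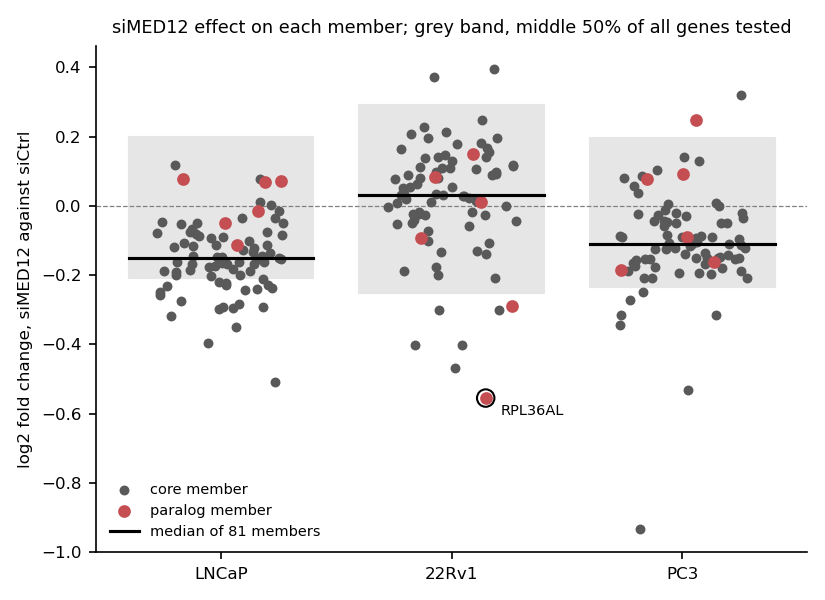
Log2 fold change of siMED12 against siCtrl for each of the 81 tested genes in LNCaP, 22Rv1 and PC3, core genes in black and paralogs in red, with the median of the 81 as a bar. The grey band holds the middle 50% of all genes tested. The medians lie at -0.15, 0.03 and -0.11, and RPL36AL in 22Rv1, circled, is the member that passed the test.

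As a mean over the lines, 6 members were higher and 75 lower, with a median of -0.07 against -0.01 over all genes. Scaled by library totals alone, 27 were higher and 54 lower, with a median of -0.02 against 0.04 over all genes. None passed the edgeR test, beside 0.265% of all genes, and 7 had an unadjusted p under 0.05 (8.64%, beside 8.52% of all genes). DESeq2 and limma called none. The member with the lowest adjusted p was again RPL36AL (-0.28, SE 0.08, edgeR adjusted p 0.174), called with the replicate block (-0.31, adjusted p 0.0275). RPS27 and RPS10 had the lowest mean effects, -0.56 (SE 0.28, edgeR adjusted p 0.589) and -0.39 (SE 0.20, adjusted p 0.61), and RPL7L1 and RPL39L the highest, 0.13 (SE 0.15, adjusted p 0.86) and 0.06 (SE 0.45, adjusted p 1). The test without a replicate block called no difference of effects between lines: 0 of 81 were called in each of the 3 differences, where 0.189% (22Rv1 against LNCaP), 0.0284% (PC3 against LNCaP) and 0.0946% (PC3 against 22Rv1) of all genes were, and 17, 1 and 6 had an unadjusted p under 0.05 (21.0%, 1.23% and 7.41%, beside 8.28%, 5.02% and 9.16% of all genes). With the block 3 members were called between 22Rv1 and LNCaP: RPL7 (0.86, edgeR adjusted p 0.00649), RPL13A and RPS12 (0.59, adjusted p 0.0434). The deviations of same-numbered libraries from their group means had r of 0.132 to 0.177 over genes in LNCaP. In 22Rv1, where only 2 pairs exist, r was 0.19 and 0.253 over genes and -0.431 and -0.102 over the members. The median differences were 0.16, 0.05 and -0.15, from comparisons that share libraries.

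The standard error of a member's log2 fold change was 0.09 to 1.15 in LNCaP, where RPL39L had the highest, with a median of 0.12 (3 libraries against 3), and 0.13 and 0.14 at the median in 22Rv1 and PC3 (3 against 2). The mitochondrial ribosomal protein genes had medians of -0.03 in LNCaP, -0.03 in 22Rv1 and -0.09 in PC3, with 0 called, and the 13 other TOP mRNAs had -0.16, -0.01 and -0.07 with 0 called.

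Reads of a member can be counted on its pseudogenes. The table held 1406 genes named as pseudogenes of a member, with 486481 counts beside 1197631 on the members, and for 19 of the 85 the pseudogenes held more counts than the gene. How unique the end of a gene is can be read from the genome: of the 60-base words in a window from 300 coding bases before the end of the stop codon to 50 bases after it, the share that recurs elsewhere was under 10% for 24 members, 10% to under 50% for 28 and at least 50% for 33. Pseudogenes of the 24 held 1827 counts beside 380857 (0.48%), those of the 28 held 13.3% of their genes' counts, and those of the 33 held 423953 beside 361585 (117%). RPL36A had 123 counts and its pseudogenes 8594, RPL21 had 2363 and 24042. Where a read was given to a pseudogene, its source was not tested.

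The median difference between PC3 and LNCaP was nearer 0 in members with unique ends. Among the 22 tested members under 10%, the median log2 difference of PC3 from LNCaP was -0.20, with 4 called higher and 10 lower (29.2% and 25.5% over all genes), against -0.77 for the 27 members between and -0.74 for the 32 at 50% or above. For PC3 against 22Rv1 the medians were -0.48, -0.57 and -0.62, and for 22Rv1 against LNCaP -0.24, -0.30 and -0.36. For siMED12 in LNCaP they were -0.14, -0.16 and -0.17. With each member summed with its named pseudogenes, the classes held 22, 28 and 33 tested members. Their medians were then -0.21, -0.78 and -0.80 for PC3 against LNCaP, so the gap between the classes remained. They were -0.50, -0.61 and -0.70 for PC3 against 22Rv1, and -0.22, -0.29 and -0.21 for 22Rv1 against LNCaP. After summing, 48, 63 and 64 were called between lines in place of 49, 61 and 59. The main fit called 43.2%, 54.7% and 54.9% of all genes in these comparisons, and the shares in the summed fit are not given here. For siMED12 the summed fit gave 0, 1 and 0 calls in LNCaP, 22Rv1 and PC3, RPL36AL again being the one in 22Rv1.

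**Figure D5:**
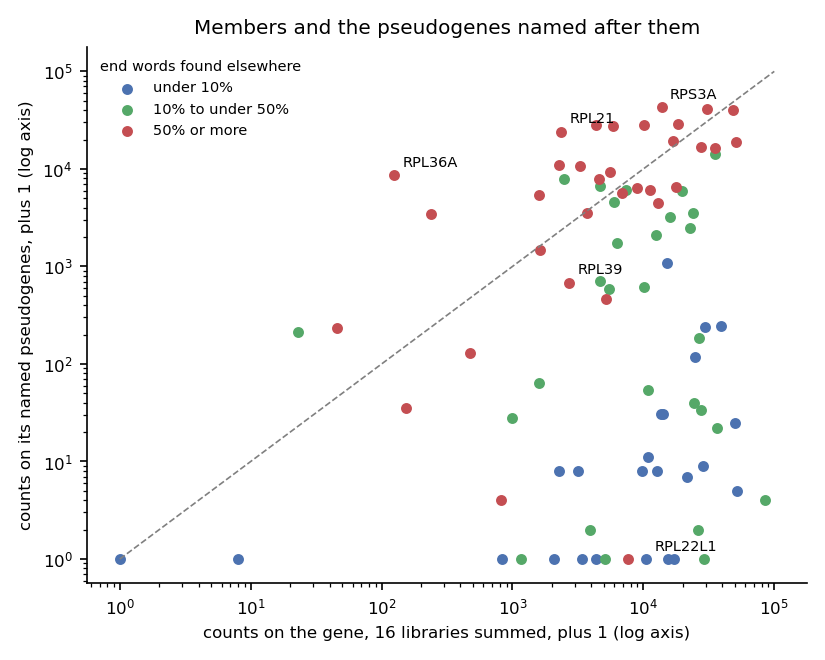
Counts on the genes named as pseudogenes of each of the 85 genes (y axis) against counts on the gene itself (x axis), summed over 16 libraries and plus 1, on log axes. Colour gives the share of 60-base words near the stop codon that recur elsewhere in the genome, and the dashed line marks equal counts. The 19 genes above the line include RPL36A, RPL21 and RPS3A, while RPL22L1 has no gene named as its pseudogene and lies at the bottom.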

How the data were processed

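BRB-seq, which barcodes samples at reverse transcription and sequences 3′ ends, was applied to 16 libraries in 6 groups. Per the methods of the study, the authors aligned and counted reads with STARsolo against Gencode release 43 (GRCh38 p13) and deposited raw counts, and a deposited table of log2 CPM was made from them with edgeR. UMI handling and the strand setting are not given in the sources used here. Recomputing the log2 values from the counts gave the deposited ones within 1e-09 (prior count 2).

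Groups came from the sample labels. The counts were fitted in R 4.3.3 with edgeR 4.0.16 (quasi-likelihood, 2-sided; minimum count 10, minimum total 15; TMM; 1 mean per group), and p-values were adjusted by Benjamini-Hochberg over 10566 genes with a threshold of 0.05. SE is the log2 fold change divided by the square root of F. CPM are TMM-scaled. The test was checked on simulated data. Coordinates of genes are Gencode release 44 on GRCh38, and start sequences RefSeq. Alternatives were other scalings and filters, DESeq2 1.42.0, limma 3.58.1, a replicate block and leaving out libraries. The deviations of same-numbered siCtrl and siMED12 libraries of LNCaP from their group means had r = 0.177, 0.132 and 0.135 over genes. Over the members r was 0.291, 0.18 and -0.189. The main fit did not pair libraries, and the block left the LNCaP count of calls at 0.

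Members, lists and tests were chosen with earlier results of these data known. Named genes were paralogs with partners, called or extreme members of each contrast, those of highest and lowest level, and a list with known roles outside the ribosome, apart from RPL37A, RPL21 and some core genes chosen after their values were seen. Some genes that this rule names are not reported here.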

Additional observations from a re-analysis of the deposited data

Results flagged for a closer look

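Counts on genes named as pseudogenes of the members lie outside the comparisons of named genes. They made up 2.67% to 4.97% of a library, far above the limit of 3 counts, and are given for a closer look because each comparison of a member, unless it says that they were summed in, leaves them out.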

How the results depend on the processing

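The number of members called for siMED12 stayed between 0 and 2 in each line. In LNCaP it was 1 in place of 0 when every gene with a count was tested, and 0 to 1 without 1 library. In 22Rv1 the 1 call became 0 with DESeq2, with 22Rv1 alone in the fit, and without both siMED12 libraries raised in genes restricted to another line (an alternative chosen after seeing the data), 2 when every gene with a count was tested and 2 with the replicate block, and 0 to 1 without 1 library. PC3 gave 0 in all alternatives run. The mean effect gave 1 call (RPL36AL) with the replicate block, and the differences between lines gave 3 (RPL13A, RPL7 and RPS12) with the block and 1 when every gene with a count was tested. In 22Rv1 and PC3 only 2 same-numbered pairs exist (r = 0.19 and 0.253, and 0.117 and 0.0787 over genes). In no line are the numbers known to pair the libraries. Counts of calls between lines in siCtrl ran from 42 to 64 and changed by under 1.5 times in all alternatives run. The causes were not tested. Single genes turned direction in a few cases. The mean effect of RPL39L, 0.059, was -0.037 without both siMED12 libraries raised in genes restricted to another line and ran from -1.11 to 0.27 without 1 library. Without 1 library the LNCaP effect of RPS27A ran from -0.042 to 0.16, that of RPL7L1 from -0.49 to 0.63 in PC3 and from -0.11 to 0.26 as a mean, and the difference of the RPS20 effects between PC3 and 22Rv1 from -0.055 to 1.13.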
